A study of Rattus norvegicus with 31 samples.

Results

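The Phase II conjugation enzymes are the proteins that attach glutathione, glucuronic acid or sulfate to drugs, steroids, bile acids and the products of lipid oxidation. Their genes were taken as every gene with an array probe set of its own whose symbol begins with *Gst* plus a class letter and a number, *Mgst*, *Ugt* or *Sult*. This gave 46 of the 14217 genes that had a probe set of their own. They were 20 cytosolic glutathione S-transferase (GST) genes, 3 membrane GST (MGST) genes, 9 UDP-glycosyltransferase (UGT) genes and 14 sulfotransferase (SULT) genes. Where a gene had several probe sets, the one with the highest mean in a tissue stood for it. Another 4 probe sets carried a matching symbol together with a second gene and were left out. The *Ugt1a* family lay only on such shared probe sets, so that no UGT1 enzyme was among the genes described.

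The animals were male rats of the outbred Wistar stock, 3 weeks old at the start, that ate chow for a week, then 1 of 3 diets freely for another week, and then the same diet for 9 weeks. The low-fat diet of the L-group drew 65% of its energy from carbohydrate and 15% from fat, the moderate diet of the M-group 60% and 20%, and the high-fat diet of the H-group 35% and 45%. In those 9 weeks the L-group ate freely and the M- and H-groups received the same energy as the L-group, and food was taken away 17 hours before dissection in every group. Liver was measured in 5 L-group, 4 M-group and 4 H-group rats, and white (WAT) and brown (BAT) adipose depots in the same 5 L-group and 4 H-group rats, which made 31 single-rat arrays. Rats are named by diet and animal number, from L1 to L5, M6 to M10 and H12 to H16. Values are log2 signals that the authors had normalised by a different method in each tissue, so that a level was never set against that of another tissue, and never against that of another gene.

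Conjugation follows oxidation by cytochromes P450 and makes a compound soluble enough to leave in bile or urine. GSTs join the thiol of glutathione to electrophiles, UGTs transfer glucuronic acid from its UDP-linked form, and SULTs transfer sulfate from its activated donor. Liver is the main site of all 3 reactions, and many of the genes are switched on by nuclear receptors such as CAR and PXR and by the oxidant sensor NRF2, which binds the antioxidant response element. Adipose tissue expresses a smaller set, in which GSTs and MGSTs that act on lipid peroxides are best known.

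The stretches of 250 bases before the gene start are shown for 5 of the genes named below, since these are the stretches through which conjugation genes are often switched. They were copied from RefSeq on the rat assembly GRCr8, are written 5′ to 3′ on the strand of the gene, and carry capitals where the core of the antioxidant response element, TGACNNNGC on either strand, was found. *Gstt3* lies on the plus strand at chr20:12874368-12874617, *Sult1c2* on the plus strand at chr9:7436731-7436980, *Sult1c3* on the minus strand at chr9:7594257-7594506, *Gstm7* on the minus strand at chr2:198260320-198260569 and *Mgst3* on the minus strand at chr13:82080296-82080545.
Gstt3: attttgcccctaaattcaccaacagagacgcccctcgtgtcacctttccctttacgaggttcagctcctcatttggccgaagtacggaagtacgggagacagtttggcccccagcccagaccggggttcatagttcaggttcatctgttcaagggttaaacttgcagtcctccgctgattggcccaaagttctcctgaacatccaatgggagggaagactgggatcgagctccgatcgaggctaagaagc
Sult1c2: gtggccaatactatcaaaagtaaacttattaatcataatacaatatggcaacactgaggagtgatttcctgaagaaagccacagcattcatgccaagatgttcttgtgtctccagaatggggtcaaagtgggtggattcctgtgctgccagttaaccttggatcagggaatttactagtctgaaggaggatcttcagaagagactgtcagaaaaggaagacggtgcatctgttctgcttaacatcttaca
Sult1c3: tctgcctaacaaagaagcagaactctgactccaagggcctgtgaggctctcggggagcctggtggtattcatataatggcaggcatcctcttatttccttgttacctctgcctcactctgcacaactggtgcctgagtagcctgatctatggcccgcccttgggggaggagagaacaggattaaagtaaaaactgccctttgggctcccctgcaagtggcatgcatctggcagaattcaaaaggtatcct
Gstm7: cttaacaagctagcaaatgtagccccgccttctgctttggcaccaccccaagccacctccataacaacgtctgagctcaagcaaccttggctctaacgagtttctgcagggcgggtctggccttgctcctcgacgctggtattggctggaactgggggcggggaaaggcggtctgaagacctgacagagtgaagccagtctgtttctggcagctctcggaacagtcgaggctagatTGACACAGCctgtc
Mgst3: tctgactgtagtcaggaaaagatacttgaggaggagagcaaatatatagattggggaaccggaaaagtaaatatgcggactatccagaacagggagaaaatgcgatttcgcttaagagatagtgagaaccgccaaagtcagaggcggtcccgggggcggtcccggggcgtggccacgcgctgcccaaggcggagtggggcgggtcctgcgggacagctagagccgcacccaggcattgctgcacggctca

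A sequence of this kind was at hand for 40 of the 46 genes. The core TGACNNNGC was found in 5 of the 40, *Gsta3*, *Gstm5*, *Gstm7*, *Gstp1* and *Gstz1*, and in 10.1% of the 33469 promoters of the same length in the genome. In *Gstm7* the match began 14 bases before the gene start. The core of the xenobiotic response element, GCGTG on either strand, was found in 9 of the 40, *Mgst3* and *Gsta4* among them, and in 25.9% of all promoters. A TATA box, TATAAA on either strand, was found in 11 of the 40 and in 12.9% of all promoters, and *Sult2a6*, *Sult2a1* and *Sult2a2* held one. None of these 3 motifs was found in the stretches of *Gstt3*, *Sult1c2* and *Sult1c3*, which says only that these letters are not in this window.

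All 46 genes were followed in liver, where no lower bound was set on the signal. Some had low signals there, with group means of 2.24 to 2.32 for *Sult2a1*, 2.51 to 2.66 for *Gsta3l1* and 2.53 to 2.57 for *Ugt8*. The liver array medians were 4.67 or more, so that a small difference in such genes says little. In WAT the authors' summarisation had returned 1 and the same value on all 9 arrays for 28 of the genes, and 18 varied. In BAT 20 genes stood within 0.1 of the lowest value of the table, 2.29, on every array, and 26 rose above it on at least 1 array. The genes that could be followed in WAT were 12 GSTs, 2 MGSTs and 4 SULTs, and in BAT 16 GSTs, 3 MGSTs, 2 UGTs and 5 SULTs. No UGT varied in WAT, and in BAT *Ugt2b7* and *Ugt2b34l1* were the only UGTs that did. *Ugt2b7* rose more than 0.1 above the lowest value in rat H16 alone, at 2.49, and *Ugt2b34l1* in L3, L4 and H16, at 2.65, 3.04 and 3.00. Defining hepatocyte genes (*Alb*, *Apoa1*, *Ttr*, *Cps1* and *Fgb*) averaged 13.36 to 13.51 on every liver array, and *Ucp1*, the uncoupling protein of brown fat, stood at 14.44 to 14.89 on every BAT array. Skeletal muscle genes averaged 2.30 or 2.31 on 7 BAT arrays but 4.68 in rat H13 and 5.60 in rat H15, so that BAT calls are also given without these 2 arrays.

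The diets were compared in 5 pairs, with limma across all probe sets of a tissue and with rank products, the method that the study itself used. Limma asks for a mean difference that is large against the spread between rats. Rank products asks for a gene that stands near the top of the ranked differences in pair after pair of rats, and pays no direct regard to the spread. Calls were made at an adjusted p, or a false discovery rate (FDR), below 0.05. Each rat was 1 animal, and a difference is the second diet minus the first throughout.

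Limma called none of the 46 genes in any comparison, and at an unadjusted p below 0.05 the counts were 1 gene for liver L vs M, 3 for M vs H, 5 for L vs H, 0 of 18 in WAT and 5 of 26 in BAT. The same p was reached by 3.69%, 6.39% and 9.24% of all genes in liver, 7.89% in WAT and 9.33% in BAT, so that the liver counts lie near the background. At the adjusted p, over all genes that could be followed, limma called 0.00703%, 0.0141% and 0.0492% in the 3 liver comparisons, 0% in WAT and 0% in BAT. Rank products called 1 member higher and 1 lower in liver L vs M, where 0.155% and 0.324% of all genes were called. In liver M vs H it called 1 higher and 1 lower (all genes 0.570% and 0.373%), and in liver L vs H 2 higher and 1 lower (all genes 0.893% and 0.774%). In WAT it called 2 of the 18 higher and 1 lower (all genes 3.96% and 6.14%), and in BAT 3 of the 26 higher and 3 lower (all genes 1.21% and 2.61%). Over so few genes each of these counts is small, and *Gstt3* is among the calls of all 3 liver comparisons and of WAT. Of the members called, *Sult1c3* and *Gsta1* in BAT were called again with each rat left out in turn, and every other call of a member ended without at least 1 rat.

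The groups of rats did not overlap for 0 genes in liver L vs M, 1 in M vs H and 1 in L vs H, against 0.950%, 3.14% and 3.44% of all genes. In WAT 1 gene was free of overlap against 2.90% of all genes, and in BAT 3 genes against 3.48%. The median log2 difference of the members was -0.0081, 0.023 and 0.035 in the 3 liver comparisons, 0.029 in WAT and 0.037 in BAT, beside -0.00021, 0.0051, 0.0042, 0.020 and 0.0052 over all genes.

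**Figure D1:**
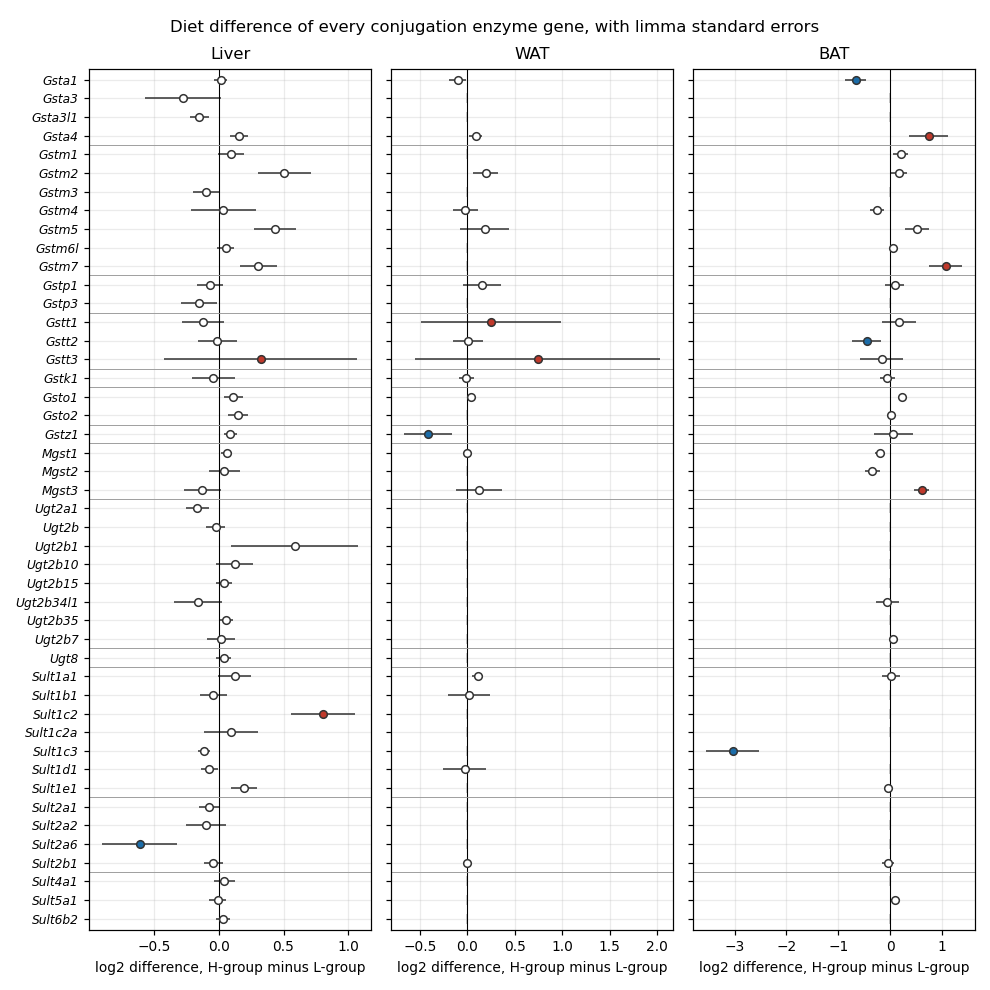
The log2 difference, H-group minus L-group, of each gene in liver, WAT and BAT, with the limma standard error as a bar and genes grouped by class from alpha GSTs at the top to SULTs at the bottom. Red points were called higher in the H-group by rank products, blue points lower, and open points were not called. A gene without a point had 1 value on all WAT arrays or the lowest value on all BAT arrays. *Gstt3* and *Gstt1* have the widest bars in WAT, and *Sult1c3* in BAT lies farthest from 0 at -3.04.

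In liver the clearest difference among the sulfotransferases was in *Sult1c2*, which belongs to the cytosolic SULT1 enzymes. Its signals were 8.58, 7.99, 7.61, 8.18 and 8.44 in the L-group, 9.15, 9.13, 8.47 and 8.27 in the M-group and 9.31, 8.73, 8.46 and 9.35 in the H-group. The lowest M- and H-group rats lay inside the range of the L-group, and the highest signals were those of H12 and H16. The difference was 0.81 (SE 0.25, adjusted p = 0.358) for L vs H and 0.60 (SE 0.25, adjusted p = 1) for L vs M in limma, while the FDR of rank products was 0.00446 and 0.0364. The L vs H call ended without H16, where the difference was 0.68, and the L vs M call ended without L2, L3, L4, M6, M8 or M9. The neighbouring gene *Sult1c2a* differed by 0.097 (SE 0.21) for L vs H. A further probe set shared by *Sult1c2* and a second gene was not used, and transcripts of these like genes may reach each other's probes.

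*Sult2a6*, of the hydroxysteroid sulfotransferases that act on steroids and bile acids, had its lowest signals in the H-group. Its signals were 10.25, 10.47, 10.07, 10.74 and 11.64 in the L-group, 10.47, 10.41, 11.37 and 10.56 in the M-group and 10.13, 10.11, 9.54 and 10.31 in the H-group. Every H-group rat lay below every M-group rat, whereas the L-group reached from inside the H-group range to 11.64 in rat L5. The difference was -0.68 (SE 0.30, adjusted p = 0.832) for M vs H and -0.61 (SE 0.29, adjusted p = 0.561) for L vs H, with FDRs of rank products of 0.0184 and 0.0166. Without rat L5 the L vs H difference was -0.36, and without rat M9, the highest of its group, the M vs H difference was -0.46. Rank products no longer called the gene for L vs H without L4, L5 or H15, nor for M vs H without M9, M10 or H15. The other SULT2 genes differed by less, with *Sult2a1* at -0.076, *Sult2a2* at -0.097 and *Sult2b1* at -0.042 for L vs H. The signals of *Sult2a1* and *Sult2a2* were low, with L-group means of 2.32 and 3.57, so that a fall could hardly show. A further probe set of *Sult2b1* differed by -0.25 (SE 0.14).

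Among the other hepatic SULTs, *Sult1c3* stood at 12.48, 12.48, 12.38, 12.52 and 12.42 in the L-group and at 12.33, 12.30, 12.33 and 12.43 in the H-group. These groups overlapped at a single rat, H16, and the difference was -0.11 (SE 0.047, adjusted p = 0.512). *Sult1e1*, the estrogen sulfotransferase, differed by 0.20 (SE 0.099, adjusted p = 0.591), and *Sult1a1*, the phenol sulfotransferase, by 0.12 (SE 0.13, adjusted p = 0.832). Of the 14 SULT genes 6 had a higher and 8 a lower mean in the H-group than in the L-group, beside 7366 higher and 6851 lower of all 14217 genes.

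The mu class of GSTs held 2 of the 3 GSTs with the smallest p in liver L vs H. *Gstm2* gave 9.15, 9.79, 8.87, 9.42 and 9.91 in the L-group, 9.79, 10.07, 9.27 and 9.53 in the M-group and 9.74, 9.78, 10.17 and 10.05 in the H-group. All 4 H-group rats were above L1, L3 and L4, and H15 and H16 were above every L-group rat, and the difference was 0.51 (SE 0.21, adjusted p = 0.499) with an FDR of 0.0526 in rank products, just short of a call. *Gstm5*, whose signals were low, gave 3.35, 2.91, 3.30, 3.24 and 3.28 in the L-group and 3.42, 3.17, 3.88 and 4.13 in the H-group, a difference of 0.44 (SE 0.16, adjusted p = 0.454) that rested on H15 and H16. *Gstm7* differed by 0.31 (SE 0.14, adjusted p = 0.554), and the means of 6 of the 7 mu genes were higher in the H-group, with a median of 0.10. Over all 14217 genes 7366 were higher and 6851 lower in this comparison. For L vs M 3 of the 7 mu genes were higher and 4 lower. No mu gene was called by limma or rank products in liver.

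*Gsta4*, an alpha GST that acts on 4-hydroxynonenal from lipid peroxidation, was the other GST with a small p. It gave 9.76, 9.81, 9.73, 9.85 and 9.87 in the L-group, 9.67, 9.80, 9.79 and 9.72 in the M-group and 9.76, 10.14, 10.03 and 9.90 in the H-group. The 2 highest rats were H13 and H15, while H12 stood inside the L-group, and the difference was 0.15 (SE 0.070, adjusted p = 0.545) for L vs H and 0.21 (SE 0.074, adjusted p = 0.75) for M vs H. The membrane enzyme *Mgst1* was the single gene without overlap in liver L vs H, with 13.45, 13.45, 13.45, 13.47 and 13.47 in the L-group and 13.49, 13.53, 13.54 and 13.52 in the H-group, although the step was only 0.061 (SE 0.040, adjusted p = 0.707). *Mgst3*, a microsomal enzyme with glutathione peroxidase activity, differed by -0.13 (SE 0.14, adjusted p = 0.845) in the same comparison.

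None of the 9 hepatic UGTs had an unadjusted p below 0.05 for L vs H. The 3 smallest p were those of *Ugt2a1* with -0.16 (SE 0.091, adjusted p = 0.645), *Ugt2b1* with 0.59 (SE 0.49, adjusted p = 0.789) and *Ugt2b35* with 0.059 (SE 0.054, adjusted p = 0.808). *Ugt2b1* stood out by its spread, with 9.54, 10.63, 7.76, 10.97 and 10.12 in the L-group, 9.87, 10.50, 9.74 and 9.58 in the M-group and 9.96, 10.38, 10.59 and 10.64 in the H-group. Its difference came from 1 rat, since the L vs H value without L3 was 0.077. *Ugt8*, which makes galactosylceramide rather than a drug conjugate, had low signals, between 2.42 and 2.66 in all 13 livers, at which a difference could hardly show.

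**Figure D2:**
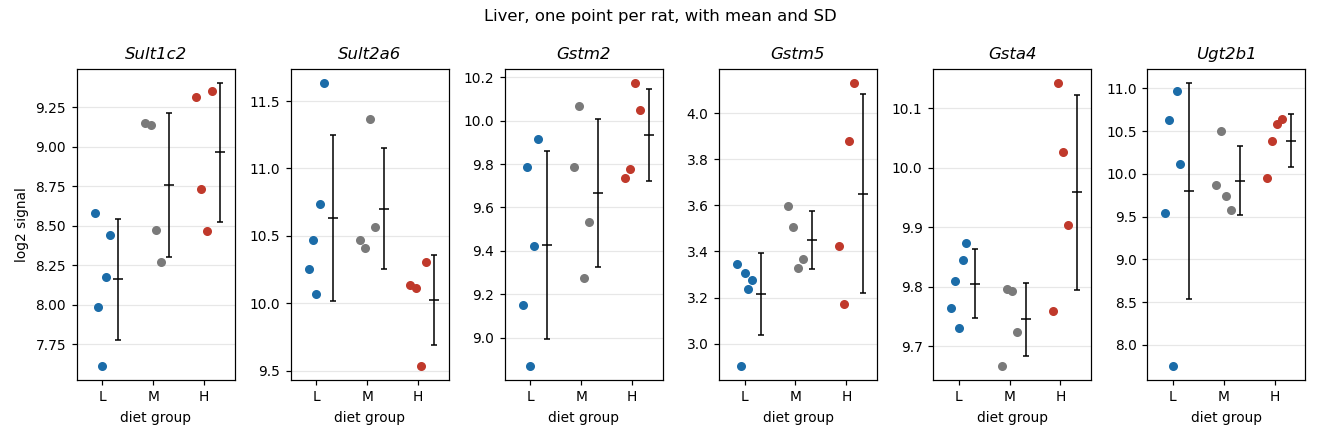
Log2 signal of 6 genes in liver, 1 point per rat in the L-group (n = 5), M-group (n = 4) and H-group (n = 4), with the mean and SD beside each group and a separate axis range in each panel. *Sult1c2* runs from 7.61 to 9.35, the H-group of *Sult2a6* lies below its M-group, and 1 L-group rat at 7.76 sets the spread of *Ugt2b1*.

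In WAT the zeta enzyme *Gstz1*, which is the maleylacetoacetate isomerase of tyrosine breakdown, was called lower in the H-group by rank products. It gave 9.24, 9.996, 10.34, 9.22 and 9.62 in the L-group and 9.38, 9.47, 9.00 and 9.21 in the H-group. Rats L2 and L3 stood highest, while L1 and L4 lay among the H-group. The difference was -0.42 (SE 0.25, adjusted p = 0.764), with an FDR of 0.0112. Without L3 the difference was -0.25 and without L2 it was -0.34, and the call ended in both cases. In liver the same gene differed by 0.090 and in BAT by 0.058, and whether the diet effect differed between tissues was not tested.

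*Gstt3* and *Gstt1* of the theta class were the other WAT genes called by rank products, with FDRs of 0.00871 and 0.0489. Their limma differences were 0.74 (SE 1.29, adjusted p = 0.97) and 0.25 (SE 0.74, adjusted p = 1), with standard errors larger than the differences themselves. Leaving out single rats moved the *Gstt3* difference between 0.055 (without H16, which ended the call) and 1.62 (without H12), with 1.36 without L1, 0.18 without L2 and 0.23 without L5. The *Gstt1* difference moved between -0.15 and 0.70, and its call ended without L2, L5, H12, H13, H15 or H16. The rats behind these values are described with the theta class below.

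Of the remaining WAT genes *Gstm2* differed by 0.19 (SE 0.13, adjusted p = 0.801), *Gsto1*, an omega enzyme, by 0.040 (SE 0.028, adjusted p = 0.806) and *Mgst3* by 0.12 (SE 0.24, adjusted p = 0.982). *Sult1a1* gave 11.08, 11.15, 11.10, 11.16 and 11.29 in the L-group and 11.18, 11.40, 11.25 and 11.23 in the H-group, a difference of 0.11 (SE 0.058, adjusted p = 0.717), and *Sult2b1*, the cholesterol sulfotransferase, differed by -0.0038 (SE 0.013). *Mgst1* was the gene without overlap, but its signals spanned only 13.49 to 13.51 over the 9 rats, and its difference was -0.0096 (SE 0.010, adjusted p = 0.885). *Sult1d1* and *Sult1b1* were highest in rat H15, at 7.28 and 7.20. That array also had the highest mean of 3 mesothelial markers, 10.82 against 7.93 to 9.89 on the other WAT arrays, and the part of these cells in the 2 genes was not tested.

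BAT held the largest diet difference of the whole family, in *Sult1c3*. Its signals were 6.01, 6.52, 5.74, 7.77 and 5.83 in the L-group and 3.68, 3.68, 3.68 and 2.29 in the H-group. Every H-group rat lay below every L-group rat, and H16 was at the lowest value of the table. The difference was -3.04 (SE 0.51, adjusted p = 0.402), with an unadjusted p of 0.000489 in limma and an FDR of 0 over the permutations of rank products. Since 3 of the 4 H-group rats shared 1 value and the other one was at the lowest value, the size of the step is set by the bottom of the scale. Without rats H13 and H15 the difference was -3.38. The mean of 5 hepatocyte markers was 4.66 to 4.86 in the H-group and 4.74 to 4.91 in the L-group. Among them *Apoa1* and *Cps1* were at the lowest value on all BAT arrays, *Fgb* at 2.29 to 2.31 and *Ttr* at 3.68 to 4.34. *Alb* gave 12.62 to 13.31 in the H-group and 12.98 to 13.36 in the L-group.

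The alpha enzyme *Gsta1* was lower in all H-group rats as well. It gave 10.23, 10.17, 9.91, 9.99 and 10.16 in the L-group and 9.88, 9.50, 9.51 and 8.82 in the H-group, with H12 just below the lowest L-group rat. The difference was -0.66 (SE 0.20, adjusted p = 0.825) and the FDR 0.00336, and without H13 and H15 the difference was -0.74 with an FDR of 0.0134. *Gstt2* was also called lower, with 8.07, 7.08, 7.03, 7.46 and 7.03 in the L-group and 6.80, 6.60, 7.42 and 6.69 in the H-group, a difference of -0.45 (SE 0.27, adjusted p = 0.97). Its groups overlapped through H15, and L1 stood above all others. Without L1 the difference was -0.27, and the call ended without L1, L2, L3, L4, H12 or H13.

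*Mgst3* and *Gstm7* were called higher in the H-group. *Mgst3* gave 9.38, 8.77, 8.86, 8.95 and 8.90 in the L-group and 9.68, 9.71, 9.65 and 9.30 in the H-group. Only L1, at 9.38, reached above the lowest H-group rat, and the difference was 0.61 (SE 0.14, adjusted p = 0.613) with an FDR of 0.0387. This call held only when L1 or L4 was the rat left out, although the difference stayed between 0.56 and 0.71. *Gstm7* gave 5.74, 5.73, 5.83, 5.73 and 5.74 in the L-group and 5.71, 7.10, 7.24 and 7.25 in the H-group. It stood near 5.7 in all L-group rats and in H12, and above 7 in H13, H15 and H16. The difference was 1.07 (SE 0.32, adjusted p = 0.82) with an FDR of 0.00391, a call that ended without H13 or H15. Rat H12 decided the limma result, since without it the difference was 1.44 (SE 0.043, adjusted p = 0.000695), the one call of a member by limma under any setting. The small SE came with L-group signals of 5.73 to 5.83, nearly 1 shared value, so that it may understate the spread between rats.

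*Gsta4* was the third gene called higher, with 5.69, 6.01, 5.71, 4.51 and 6.27 in the L-group and 6.08, 6.85, 6.42 and 6.16 in the H-group, a difference of 0.74 (SE 0.37, adjusted p = 0.97). Rat L4 was far below the others, and without it the difference was 0.46. The call ended without L4, H13 or H15. *Gsto1* was free of overlap without being called. It gave 11.45, 11.47, 11.33, 11.47 and 11.34 in the L-group and 11.52, 11.70, 11.70 and 11.63 in the H-group, a difference of 0.23 (SE 0.049, adjusted p = 0.556). Of the 16 GSTs in BAT 11 had a higher mean in the H-group and 5 a lower one, beside 5199 higher and 4601 lower of all 9990 genes followed there.

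H13 and H15 were the 2 BAT arrays that held skeletal muscle transcripts. On them *Gsta4* and *Gsto1* also had their 2 highest signals, and *Mgst3* had its highest in H13. Without these arrays rank products called none higher and 3 lower, *Gsta1*, *Gstt2* and *Sult1c3*, in place of 3 and 3. With so few arrays it called 0% of all genes higher and 2.35% lower, so that the absence of higher members is that of all genes. The differences were then 0.52 for *Mgst3*, 0.73 for *Gstm7*, 0.48 for *Gsta4* and 0.17 for *Gsto1*, and *Gsto1* remained free of overlap. H16, which had no muscle signal, had the highest *Gstm7* of all rats, and the part of skeletal muscle in the higher genes was not tested. With 2 H-group rats left, groups were free of overlap for 5 genes, *Sult1c3*, *Gsta1*, *Gsto1*, *Gstk1* and *Gstt2*, against 7.93% of all genes. The mean of 4 smooth muscle markers was 5.96 to 6.33 in the H-group and 6.25 to 7.05 in the L-group, and its part in the lower genes was not tested.

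**Figure D3:**
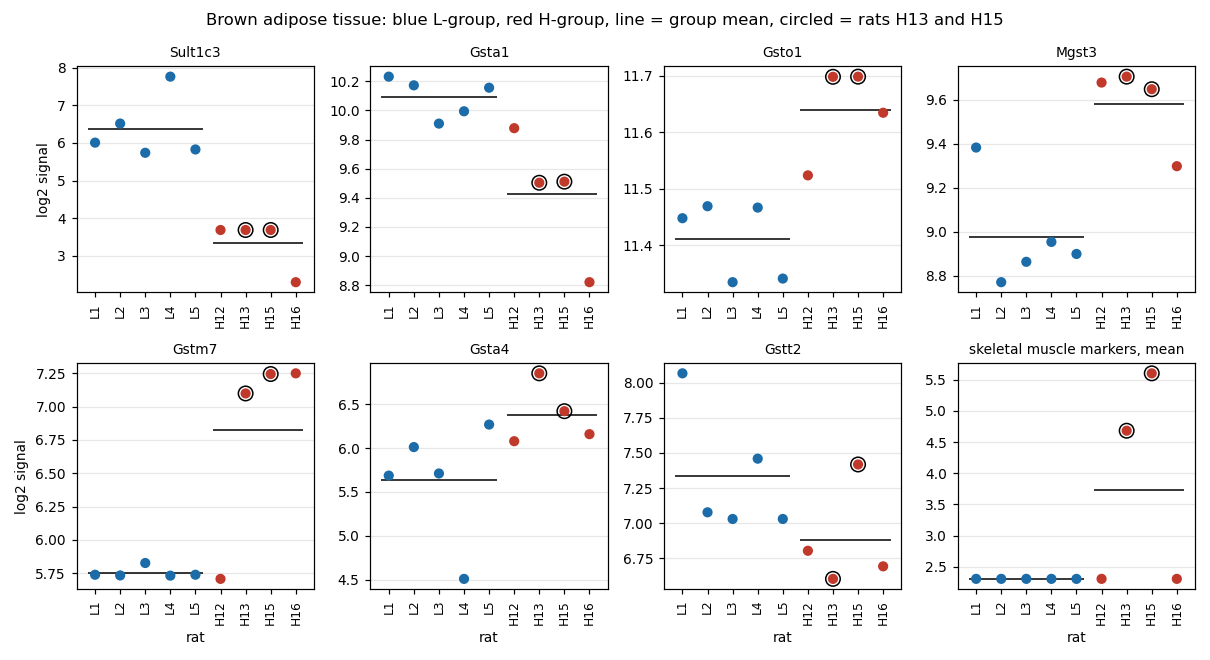
Log2 signal in BAT, 1 point per rat, for 7 genes and for the mean of 7 skeletal muscle markers, with the L-group (n = 5) in blue, the H-group (n = 4) in red and group means as lines. The circled rats H13 and H15 have muscle means of 4.68 and 5.60 against 2.30 or 2.31 in the others. *Sult1c3*, *Gsta1* and *Gsto1* show no overlap between the diets.

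*Gstt3* and *Gstt1* of the theta class varied more between rats of 1 diet than between diets, with an SD within the diets larger than the diet difference in each tissue. *Gstt3* encodes a cytosolic enzyme of the theta class, and its liver signals were 9.92, 7.89, 8.55, 9.17 and 7.39 in the L-group, 8.54, 10.19, 7.12 and 7.23 in the M-group and 6.82, 8.99, 9.77 and 10.06 in the H-group. Each diet group held rats near 7 and rats near 10, so that the groups overlapped almost entirely. The diet differences were -0.32 (SE 0.74, adjusted p = 1) for L vs M, 0.64 (SE 0.78, adjusted p = 0.959) for M vs H and 0.32 (SE 0.74, adjusted p = 0.934) for L vs H. Rank products nevertheless called the gene lower for L vs M, with an FDR of 0.0226, and higher for M vs H and L vs H, with FDRs of 0.0102 and 0.0318. Each of these 3 calls ended when any 1 of 5 of its rats was left out, and the limma difference changed sign when L1, M9 or M10 was left out of L vs M and when H16 was left out of L vs H. Within the diets its SD was 1.29 in liver, and only 4 of the 14217 genes had a larger one.

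In WAT the same gene fell into separate clusters of rats. Its signals were 11.04, 6.31, 9.77, 9.22 and 6.52 in the L-group and 6.69, 9.76, 9.43 and 11.37 in the H-group. L2, L5 and H12 stood between 6.31 and 6.69, and the other 6 rats between 9.22 and 11.37, with L1 and H16 highest. In BAT the signals were low, 4.23, 2.37, 3.18, 3.49 and 2.72 in the L-group and 2.29, 3.18, 3.18 and 3.49 in the H-group, and the same 3 rats were again the lowest, with H12 at the lowest value of the table. In the livers of these 9 rats L2, L5 and H12 were the lowest too, and L1 and H16 the highest. The 3 low rats came from both diets, 2 from the L-group and 1 from the H-group.

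*Gstt1* repeated this in WAT, where it gave 10.37, 7.74, 9.71, 9.33 and 7.61 in the L-group and 7.86, 9.48, 9.08 and 10.40 in the H-group. L2, L5 and H12 lay between 7.61 and 7.86, and the others between 9.08 and 10.40. In liver H12 and L5 were lowest at 7.80 and 7.96, but L2 at 8.40 was not low, and the whole range was 0.87 over 13 rats. In BAT L5, L2, L3 and H12 formed the low end, from 5.44 to 5.50. *Gstt2* shared the order in part. Its lowest livers were those of L1 and H16, which had the highest *Gstt3* of the 9 rats with all tissues, at 8.57 and 8.68 against 9.00 to 9.36 in the other rats, whereas in WAT L1 and H16 were its highest rats, at 9.22 and 9.44, as for *Gstt3*. L2, L5 and H12 were at 8.82, 8.82 and 8.92 there, with only H15 lower at 8.75. In BAT its lowest rats were H13 and H16, and L1 was again the highest.

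On chromosome 20 *Gstt2*, *Gstt4*, *Gstt1* and *Gstt3* lie in this order between *Mif* and *Ddt* in the RefSeq annotation of GRCr8, with *Rps28-ps4* between *Gstt2* and *Gstt4*. *Ddt*, the neighbour of *Gstt3* and the gene of a tautomerase, ranged over 0.26 in the livers of the 9 rats, 0.97 in WAT and 0.96 in BAT, where *Gstt3* ranged over 3.24, 5.06 and 1.94.

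Whether a rat's level went together in 2 tissues was asked for every gene that could be followed in both, over the 9 rats with all tissues. Of 60 such relations 15 had a tissue in which the rats fell into separate clusters, by a gap of at least 0.4 of the range, and received no correlation over all rats. *Gstt3* between liver and WAT, and *Gstt1* throughout, were among them. For *Gstt3* within the 6 rats above the gap in WAT, Pearson's r was 0.64 between liver and WAT (exact permutation p = 0.214, Spearman's rho 0.49, p = 0.356). Of 15 relations of the theta genes within these 6 rats, the unadjusted exact permutation p was below 0.05 for *Gstt3* with *Gstt1* in WAT (r = 0.96, p = 0.00833, adjusted p = 0.125), *Gstt3* with *Gstt2* in WAT (r = 0.85, p = 0.0181, adjusted p = 0.135) and *Gstt2* between liver and WAT (r = -0.88, p = 0.0278, adjusted p = 0.139). Of the 45 relations tested, 4 had an unadjusted exact permutation p below 0.05 and none passed the Benjamini-Hochberg adjustment. The smallest p was that of *Gstt3* between liver and BAT, with r = 0.85 (exact permutation p = 0.00289, adjusted p = 0.13) and rho = 0.92 (p = 0.00132). Without L5 and H12, the livers farthest from the median, r was 0.79, and with the diet means removed it was 0.89. In BAT L3, H13 and H15 shared the value 3.18 and H12 was at the lowest value of the table, so that this relation rests in part on tied and lowest signals.

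The other relations with an unadjusted p below 0.05 were *Gsta1* and *Gstp1* between WAT and BAT, with r = 0.79 and 0.74 (exact permutation p = 0.019 and 0.0209, adjusted p = 0.314 for both), and *Sult1c3* between liver and BAT, with r = 0.71 (exact permutation p = 0.0348, adjusted p = 0.391). Spearman's rho was 0.35 for *Gsta1* (p = 0.359), 0.50 for *Gstp1* (p = 0.178) and 0.73 for *Sult1c3* (p = 0.0332). Leaving out the 2 farthest rats gave r = 0.51, 0.37 and 0.55. With diet means removed the value for *Sult1c3* was 0.11, whereas *Gsta1* gave 0.85 and *Gstp1* 0.72.

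**Figure D4:**
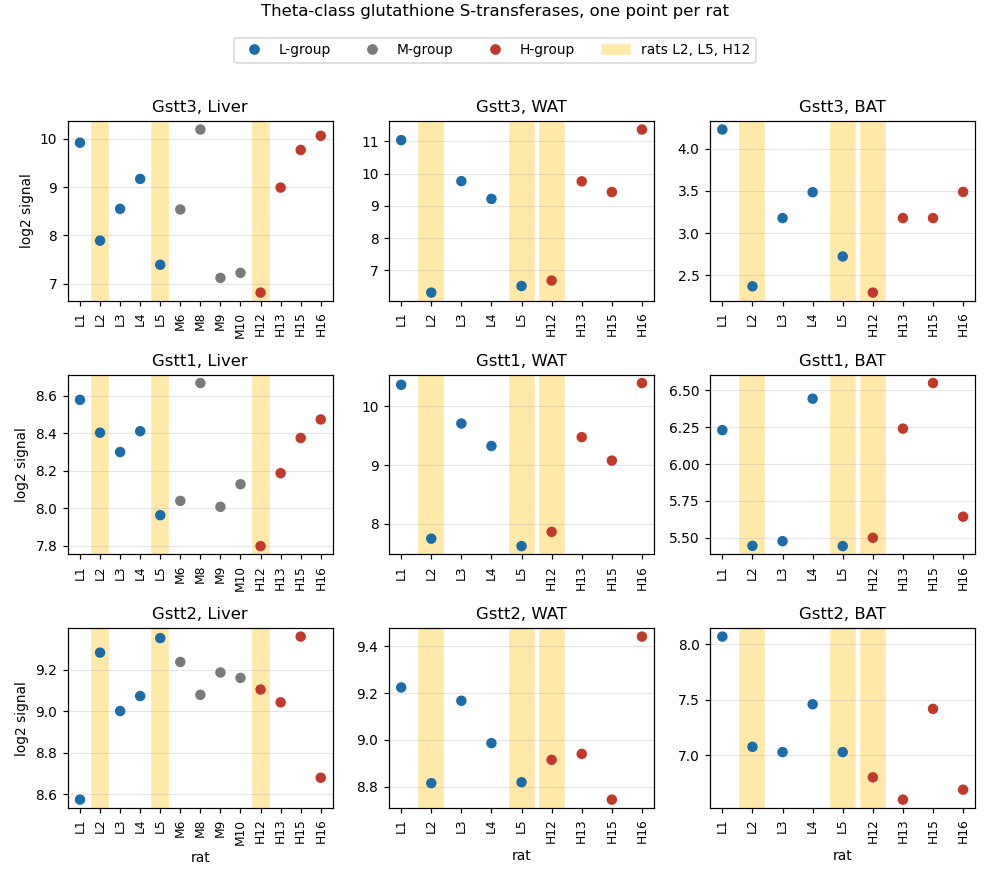
Log2 signal of the 3 theta GSTs in liver, WAT and BAT, 1 point per rat coloured by diet group, with a separate axis range in each panel and yellow bands on rats L2, L5 and H12. For *Gstt3* the banded rats lie at 6.31 to 6.69 in WAT against 9.22 to 11.37 for the others, and they are also the lowest of the 9 rats in liver and BAT, whereas *Gstt2* has these rats low in WAT and not in liver.

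Spread between rats was wide in several other conjugation genes. The SD within the diets had a median of 0.16 over the 46 genes in liver, 0.22 over 18 in WAT and 0.23 over 26 in BAT, beside 0.11, 0.16 and 0.16 over all genes that could be followed. In the livers, after the diet means were taken out, genes of some classes varied together. The median Pearson r over the pairs within a class was 0.39 for the 3 membrane GSTs, 0.32 for the 4 alpha GSTs, 0.29 for the 8 UGT2 genes and 0.16 for the 7 mu GSTs. It was 0.071 for the 4 SULT2 genes, -0.0073 for the 3 genes of SULT4 to SULT6, -0.11 for the 7 SULT1 genes and -0.48 for the 3 theta GSTs, beside 0.092 over the 1035 pairs of members and 0.0022 over all pairs of genes. These are descriptions over 13 arrays that share their normalisation. *Gstt1* and *Gstt3* had the highest r of all member pairs, 0.91, and *Gsta1* and *Gsta3* followed with 0.88. *Gsta3* and *Gsta1* also went with *Ugt2b1* at 0.78 and 0.82, and rat L3 was lowest in all 3 genes, at 2.81, 12.11 and 7.76. This was not particular to them. L3 was also the lowest liver for *Gstm2*, *Gsto1*, *Mgst1*, *Sult1c2*, *Sult1c2a*, *Sult2a2*, *Ugt2b*, *Ugt2b7*, *Ugt2b15* and *Ugt2b35*, and its part in these correlations was not tested.

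**Figure D5:**
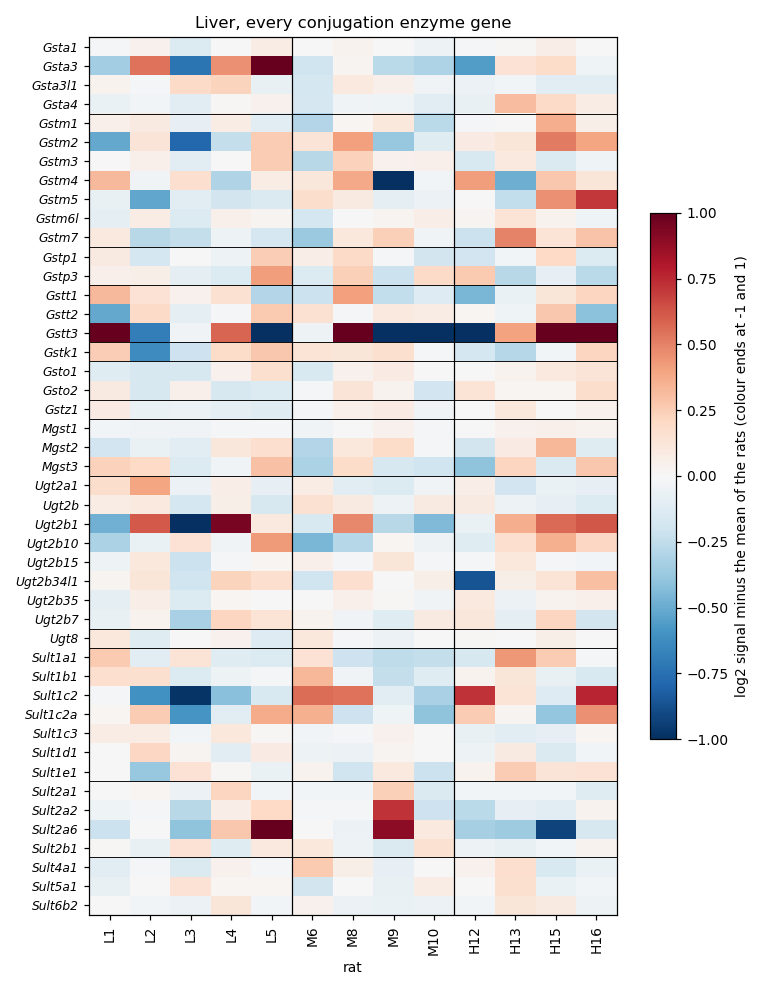
Each of the 46 genes (rows, grouped by class) in each of the 13 livers (columns, ordered by diet group), coloured by log2 signal minus the mean of the 13 rats, with colour ending at -1 and 1. The strongest colours lie in *Gstt3*, *Ugt2b1*, *Gsta3* and *Sult2a6*, and they mark single rats of every diet group rather than whole groups.

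Genes around the conjugation enzymes were taken from 8 fixed lists that cover the supply of glutathione, UDP-glucuronic acid and sulfate donor, other conjugating enzymes, efflux transporters, the sensors, other NRF2 targets and the P450s of the same sensors. Limma called none of their genes in any comparison. At an unadjusted p below 0.05 its counts for liver L vs H were 4 of 11 glutathione supply genes, 2 of 9 other NRF2 targets, 2 of 11 sensors, 2 of 7 P450s, 2 of 7 efflux transporters, 1 of 12 other conjugating enzymes, 1 of 9 sulfate donor genes and 0 of 3 UDP-glucuronic acid genes. Of all genes 9.24% reached this p in that comparison, which is about 1 gene in a list of 11. For M vs H, where 6.39% of all genes reached this p, the counts were 4 of 11 glutathione supply genes and 3 of 9 other NRF2 targets. They were 3 of 7 P450s, 3 of 12 other conjugating enzymes and 2 of 11 sensors. The remaining lists had 1 of 7 efflux transporters, 1 of 9 sulfate donor genes and 0 of 3 UDP-glucuronic acid genes. No list had more than 2 such genes in L vs M, WAT or BAT, where 3.69%, 7.89% and 9.33% of all genes reached this p. In liver L vs H rank products called 0.893% of all genes higher. It called 2 of 9 other NRF2 targets higher, *Nqo1*, the quinone reductase, by 0.63 and *Srxn1*, which repairs peroxiredoxins, by 0.51. It also called 1 of 11 sensors, *Nr1i3*, the gene of CAR, by 0.61, and 1 of 7 efflux transporters, *Abcb1a*, by 0.75. For M vs H it called *Nqo1* (0.92), *Akr7a3* (1.24) and *Nr1i3* (0.86) higher, where 0.570% of all genes were called higher. For L vs M it called *Akr7a3*, an aldehyde reductase, lower (-0.70), where 0.324% of all genes were called lower. The H-group of *Nqo1* lay between 5.75 and 7.41 and the M-group between 5.18 and 5.55, without overlap, whereas the L-group reached 6.13. With single rats left out, the call of *Nqo1* for L vs H ended for 5 of 9 rats and its difference was 0.24 without H15, and that for M vs H ended without H15 at 0.54. The L vs H calls ended for 3 of 9 rats for *Nr1i3*, 4 for *Abcb1a* and 6 for *Srxn1*, and the M vs H call of *Nr1i3* without H16 and the L vs M call of *Akr7a3* without L5. None of the 11 glutathione supply genes was called by rank products in liver.

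Of all genes followed in WAT rank products called 3.96% higher and 6.14% lower. In WAT *Akr1b8*, an aldo-keto reductase, was called higher (1.23), *Me1*, the malic enzyme that makes NADPH for lipid synthesis, lower (-0.76), and *Papss2*, which makes the sulfate donor of the SULTs, higher (0.34, SE 0.079). *Papss2* stood at 10.07 to 10.40 in the H-group and at 9.74 to 9.99 in the L-group, and its call ended without any 1 of the 4 H-group rats. Of all genes followed in BAT rank products called 1.21% higher and 2.61% lower. In BAT *Me1* (-1.38) and *Hmox1*, the heme oxygenase (-1.26, SE 1.11), were called lower and *Akr1b8* (0.69) and *Ppara* (0.70) higher. Of these only *Me1* was free of overlap, at 11.08 to 12.50 in the H-group and 13.005 to 13.299 in the L-group. Without H13 and H15 *Me1* and *Hmox1* were still called lower, at -1.37 and -1.34 (SE 0.37 and 1.63), whereas *Akr1b8* at 0.92 and *Ppara* at 0.25 were not called. Without these arrays 0% of all genes were called higher and 2.35% lower. *Hmox1* differed by -0.41 without H16, -0.75 without L2 and -2.06 without H12, *Akr1b8* by 0.37 without H12 and *Ppara* by 0.41 without H13.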

How the data were processed

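Total RNA of each tissue piece had been hybridised to 1-colour rat expression arrays, 1 rat per array. The deposited table held log2 values that the authors had made from the array scans with RMA in liver, qFARMS in WAT and GCRMA in BAT, with R and Bioconductor. After 57 control probe sets were removed, 31042 probe sets remained, of which 20826 had 1 gene symbol, 436 several and 9780 none in GEO's platform annotation. No pair of arrays was identical. Depth does not apply to arrays, and the number of rats limits the precision. Array medians spanned 4.67 to 4.70 in liver, 7.17 to 7.18 in WAT and 2.43 to 2.51 in BAT.

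The qFARMS step had given 25762 WAT probe sets 1 value on all arrays (within 1e-06), and these were left out of the WAT fit, which held 5280. In BAT 13221 probe sets never rose more than 0.1 above the lowest value. Limma 3.58.1 in R 4.3.3 (lmFit and eBayes, diet as the term, 3 diets together in liver, Benjamini-Hochberg adjustment over all probe sets fitted) and rank products over all pairs of rats with 100 permutations were run per tissue. Both were also run on simulated data made from the liver arrays alone, which says nothing of the flat WAT or lowest BAT signals. Correlations between tissues used exact permutation of the 9 rats. Each rat is a separate animal. The limma and correlation tests took both directions together. Rank products gave separate FDRs for higher and for lower, and a call needed either of them to be below 0.05.

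The members and gene lists were chosen with earlier results of these data known. Genes named are those called by either method, the 3 smallest limma p for L vs H in each of GST, UGT and SULT and 1 in MGST per tissue, and *Gstt3*, *Gstm7* and *Mgst3*. Others were named after their values were seen. Alternatives were array-median centring, a second quantile normalisation, a filter at the median signal, averaged probe sets, trended and robust variance, array weights, 2 diets alone, inclusion or removal of flat probe sets, a muscle score as a covariate, an FDR of 0.01 and leaving out each rat. Leaving out H13 and H15 in BAT, following each rank products call with single rats left out and removing diet means from correlations were added after seeing the data.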

Additional observations from a re-analysis of the deposited data

Results flagged for a closer look

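Among the named genes 140 groups of 4 or 5 rats were examined for a rat whose gap to the nearest of the others took up most of the group's range, and 17 such rats were found, where chance gives about 1 in 20 groups. That rate does not hold for *Sult1c3*, *Sult1e1*, *Sult5a1*, *Ugt2b7* and *Ugt2b34l1* in BAT, nor for *Gstm7* in the BAT L-group. There all other rats of the group shared 1 value or nearly so, and any rat off it stands apart. In liver the rats found were L2 for *Gstm5* (2.91), L1 for *Gstz1* (11.30), M6 for *Sult1a1* (11.48) and M9 for *Sult2a6* (11.365). In WAT they were L4 for *Gsta4* (8.40) and H12 for *Mgst1* (13.50), the latter in an H-group whose signals all lay between 13.49 and 13.50.

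In BAT rat H16 stood apart from the other H-group rats in 7 genes. It was lowest for *Mgst1* (13.84), *Mgst3* (9.30) and *Sult1c3* (2.29) and highest for *Sult1e1* (2.32), *Sult5a1* (3.05), *Ugt2b34l1* (3.00) and *Ugt2b7* (2.49), with the last 4 all at low signals. H12 stood apart for *Gstm7* (5.71), and in the L-group L3 did so for *Gstm7* (5.83), L4 for *Sult1e1* (2.55) and L2 for *Sult5a1* (2.703).

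*Mgst1* was higher in every H-group liver than in every L-group liver and lower in every H-group WAT sample than in every L-group one. The diet differences of the 2 tissues were 0.070 apart on the log2 scale, and this difference was not tested.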

How the results depend on the processing

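No paired analysis was possible because within a tissue the diets compared hold different rats. Of 791 refitted log2 differences of named genes, 764 kept their direction and their side of the threshold, 26 turned sign and 1 was newly called. Limma had called none of them at first, so that only a new call could change the side. A difference that shrank also counted as kept, as in liver L vs H for *Ugt2b1*, from 0.59 to 0.077 without L3. The 764 are thus no measure of how stable the sizes or the rank products calls were. Limma called no member under any alternative except in BAT without H12, where it called *Gstm7* (range over left-out rats 0 to 1). The median shift of all genes under centring or a second quantile normalisation was under 0.02.

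Leaving out each rat moved the count of rank products calls to 0 to 2 in liver L vs M (0 without L4 or M9), 0 to 3 in M vs H (0 without M9, M10 or H15), 1 to 4 in L vs H (1 without H15 or H16), 1 to 3 in WAT (1 without L2) and 2 to 6 in BAT (2 without H13, 3 without H15). The count without overlap ran from 0 to 2, 1 to 5 (5 without H12), 1 to 3, 1 to 2 and 3 to 5 in the same order, and the median difference from -0.037 to 0.026, 0.017 to 0.054, 0.0040 to 0.049, -0.0021 to 0.076 and 0.012 to 0.050. Shares over all genes are not given for single left-out rats, so that these counts have no background beside them. With fewer rats, groups free of overlap are likelier for any gene, and a higher count is no result about the members. An FDR of 0.01 left 0, 0, 1, 1 and 3 calls. With probe sets above the median signal alone, 1 gene was called in liver L vs M and 3 in BAT, and the WAT median was 0.085. Centring and a second quantile normalisation each left 0 WAT genes without overlap. Without H13 and H15 the BAT counts were 3 calls and 5 without overlap, and the median was -0.036. Over all genes in BAT 7.93% were then free of overlap, against 3.48% with all arrays, and 0% were called higher and 2.35% lower. The causes were not tested.

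Signs turned on single rats for *Gstt3* (liver L vs M -0.96 to 0.067, liver L vs H -0.059 to 1.02, BAT -0.37 to 0.096), *Mgst3* (liver L vs H -0.22 to 0.0016, WAT -0.057 to 0.22), *Gstt1* (WAT -0.15 to 0.70), *Sult1d1* (WAT -0.26 to 0.10), *Sult2b1* (WAT -0.0099 to 0.00011), and in BAT *Ugt2b34l1* (-0.23 to 0.073), *Sult5a1* (-0.018 to 0.13) and *Sult1e1* (-0.058 to 0.0062). They also turned for *Mgst1* in WAT under a second quantile normalisation (0.012), *Sult5a1* in BAT with array weights (-0.011), and *Ugt2b34l1* in BAT with the muscle score (0.11) or without H13 and H15 (0.12). Signals near the bottom of the scale limit what could be seen in WAT and BAT, and for the low genes in liver.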
